A study of Homo sapiens with 11 samples.

Results

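The 4 HOX gene clusters were examined as 4 windows of the human genome (build hg19): HOXA on chromosome 7 from 27130001 to 27250000, HOXB on chromosome 17 from 46600001 to 46810000, HOXC on chromosome 12 from 54330001 to 54450000 and HOXD on chromosome 2 from 176950001 to 177060000. Every listed region with at least 1 bp in a window was counted as a member. The windows held 248 of the 407030 regions in the 8 deposited lists, of which 48 lay in HOXA, 77 in HOXB, 61 in HOXC and 62 in HOXD. Each window was set against the 1 Mb on each side of it, where 1723 regions lay in all.

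The series addresses how RepID (the product of PHIP, also called DCAF14), a receptor of the CRL4 ubiquitin ligase, takes part in DNA replication. All cells were asynchronous and untreated in DMEM with fetal bovine serum, and each condition is 1 sample, so no value below has a replicate error and no test between conditions was possible. U2OS is a human osteosarcoma line and HCT116 a human colon carcinoma line. The U2OS lists with intact RepID were replication origins, mapped by sequencing short nascent strands that resist lambda exonuclease, and ChIP-Seq regions for CUL4A, the scaffold of CRL4, for H3K4me3 and for H3K9me3. CDT2, a substrate receptor of CRL4, was mapped in U2OS cells too. The deposited description names cells that stably overexpress full-length FLAG-tagged RepID for CDT2, whereas the text of the paper names U2OS WT cells. SKP2, the substrate receptor of the SCF ligase, was mapped in HCT116 WT cells and in HCT116 RepID KO cells, a clone in which Cas9 disrupted RepID. The HCT116 origins came from RepID KO cells only, and those of WT cells were not used here. A difference between the origin lists can therefore not be told apart as one of cell line or of genotype. The 3 input samples have no list. The depth of the libraries is unknown.

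HOX genes encode homeodomain transcription factors that give cells their position along the body axis, and they lie in clusters in which the order of the genes follows the order of their expression. Their chromatin is known for broad domains: Polycomb proteins with H3K27me3 cover silent clusters, and H3K4me3, the mark of active and poised promoters, spreads over much of an active one. H3K9me3 is a mark of constitutive heterochromatin. Replication origins are often found at CG-rich promoters.

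The 38 HOX members were matched to their clusters by symbol. In the RefSeq table (GRCh38.p14), ordered by the lowest coordinate of each entry, the 10 HOXA members run HOXA2, HOXA3, HOXA4, HOXA5, HOXA6, HOXA7, HOXA9, HOXA10, HOXA11 and HOXA13. The 10 HOXB members run HOXB1, HOXB2, HOXB3, HOXB4, HOXB5, HOXB6, HOXB7, HOXB8, HOXB9 and HOXB13. The 9 HOXC members run the other way as far as HOXC8: HOXC13, HOXC12, HOXC11, HOXC10, HOXC9 and HOXC8. HOXC4, HOXC5 and HOXC6 follow with rising numbers. The lowest coordinate of an entry need not give the order of the genes there. The 9 HOXD members run the other way throughout, HOXD13, HOXD12, HOXD11, HOXD10, HOXD9, HOXD8, HOXD4, HOXD3 and HOXD1. Gene positions in hg19 were not used here, so regions were placed within a window by their distance from its low-coordinate end and not on single genes.

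To show the kind of sequence that lies at HOX start sites, the 250 bases before the start are printed for the members with the most and the fewest CG dinucleotides in HOXA and in HOXD. The sequences are those of RefSeq (GRCh38.p14), written 5′ to 3′ along the gene, with each CG in capitals. HOXA13 lies at chr7:27200092-27200341 (minus strand), HOXA2 at chr7:27102684-27102933 (minus strand), HOXD1 at chr2:176188418-176188667 (plus strand) and HOXD4 at chr2:176151300-176151549 (plus strand).
HOXA13: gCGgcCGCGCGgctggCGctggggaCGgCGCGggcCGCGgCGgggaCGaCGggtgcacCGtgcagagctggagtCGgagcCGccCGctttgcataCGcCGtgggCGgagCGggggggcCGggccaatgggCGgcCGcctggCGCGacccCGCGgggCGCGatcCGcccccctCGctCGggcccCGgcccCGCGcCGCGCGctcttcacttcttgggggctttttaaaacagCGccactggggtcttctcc
HOXA2: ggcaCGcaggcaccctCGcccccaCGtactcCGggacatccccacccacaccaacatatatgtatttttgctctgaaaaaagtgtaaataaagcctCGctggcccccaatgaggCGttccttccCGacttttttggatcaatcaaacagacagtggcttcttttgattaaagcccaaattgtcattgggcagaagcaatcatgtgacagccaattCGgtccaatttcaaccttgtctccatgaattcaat
HOXD1: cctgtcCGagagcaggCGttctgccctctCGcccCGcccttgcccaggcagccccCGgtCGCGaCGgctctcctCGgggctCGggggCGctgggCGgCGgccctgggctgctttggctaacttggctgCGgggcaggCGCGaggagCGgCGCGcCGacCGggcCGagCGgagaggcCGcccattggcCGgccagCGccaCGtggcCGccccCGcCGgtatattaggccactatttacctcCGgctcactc
HOXD4: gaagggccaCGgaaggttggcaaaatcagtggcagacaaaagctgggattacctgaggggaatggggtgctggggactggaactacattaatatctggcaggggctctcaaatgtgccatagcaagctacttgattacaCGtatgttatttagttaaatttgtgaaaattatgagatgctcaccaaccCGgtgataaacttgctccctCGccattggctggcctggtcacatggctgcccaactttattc

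The HOXA13 sequence held 40 CG, a number that 2.16% of 35116 RefSeq promoters reached, and the HOXD1 sequence held 31, which 10.9% reached. HOXA2 held 8 and HOXD4 held 4, numbers reached by 56.3% and 70.7% of promoters. CG reads the same on both strands. Sequences were found for 20 of the 38 members, and their median of 21 CG compares with 11 over all promoters. Of the 20, 17 held at least 11. The medians were 24 for 9 HOXA members, 22 for 8 of HOXD and 14 for 2 of HOXC. The only HOXB member with a sequence, HOXB1, held 7, so the pooled median is mostly that of HOXA and HOXD. The members without a sequence were HOXA5, HOXB2, HOXB3, HOXB4, HOXB5, HOXB6, HOXB7, HOXB8, HOXB9, HOXB13, HOXC6, HOXC8, HOXC9, HOXC10, HOXC11, HOXC12, HOXC13 and HOXD9. The CG counts are a description of these 250 bases, and no region of the lists was set on them.

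Replication origins and H3K4me3 filled large parts of all 4 HOX windows. U2OS origins covered 67.7% of the 560 kb in the windows (66 regions), against 30.4% of the 1 Mb on each side and 13.7% of chromosomes 1 to 22 and X. Origins of HCT116 RepID KO cells covered 67.0% (56 regions), against 15.2% and 9.45%. H3K4me3 covered 27.6% (45 regions), against 3.88% and 1.87%, and CUL4A covered 28.8% (45 regions), against 8.65% and 5.18%. In each of these 4 lists, all 4 windows were covered more densely than their own flanks. A base of the windows lay under 4 or more of the 8 lists over 79.6 kb, which is 14.2% of the windows and 1.75% in the flanks. Only 19.9% of the windows lay under no list, against 64.2% of the flanks.

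**Figure D1:**
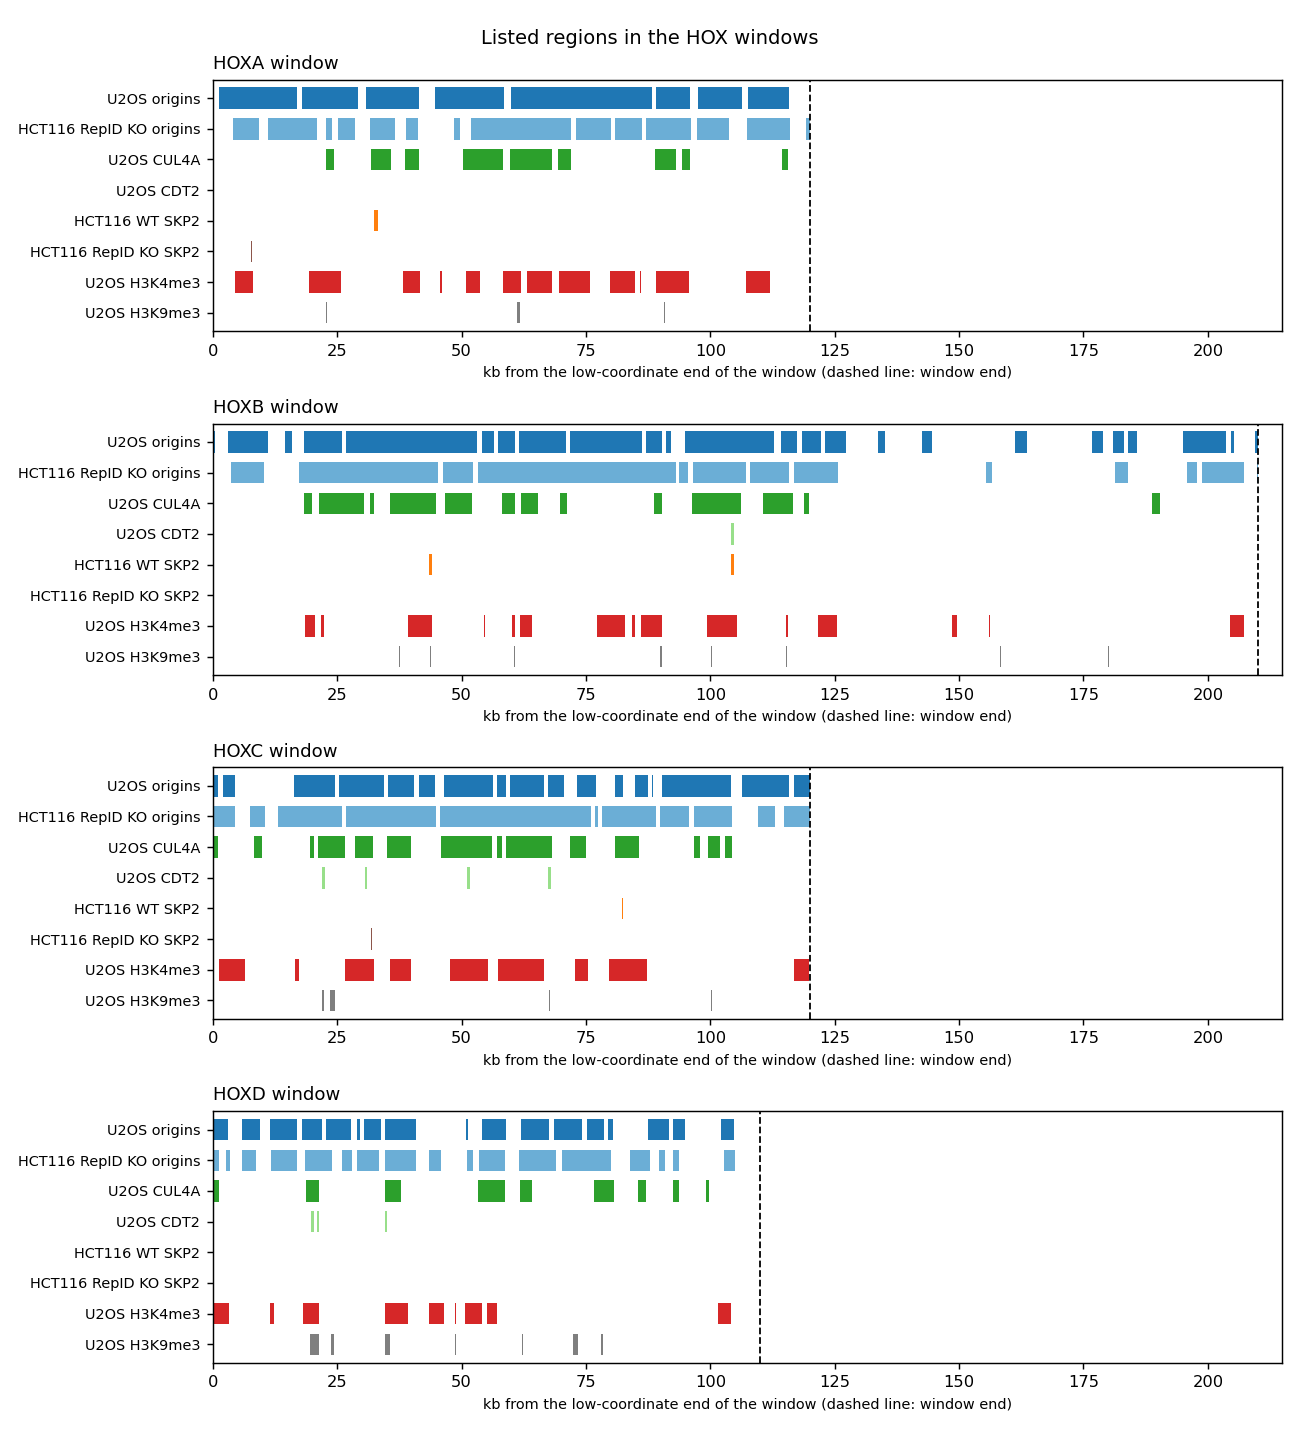
Map of the 4 HOX windows. Each bar is a listed region, drawn in kb from the low-coordinate end of the window and clipped at the window ends; the 8 rows are the 8 lists. Origins of both lines fill most of each window, the high-coordinate 105 kb of HOXB are sparser, and CDT2 and SKP2 have 14 peaks in all.

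H3K4me3 was densest in HOXA and HOXC. It covered 40.6% of HOXA, where its flanks had 1.62%, and 39.1% of HOXC, where its flanks had 7.23%. HOXD was covered to 21.2% against 0.77%, and HOXB to 17.03% against 5.91%. When chromosomes 1 to 22 and X were cut into 25287 consecutive tiles as long as the HOXA window, 0 tiles were covered as much by H3K4me3 as HOXA. For HOXC, of the same length, 1 tile was, and it did not touch a HOX window. For HOXB and HOXD, 0.464% and 0.399% of tiles of their lengths were covered at least as much. The tiles start at fixed steps, whereas the windows were laid on the clusters, so a tile can split a dense stretch that a window holds whole.

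The H3K4me3 regions of the HOX windows were wide. Their median width was 3358 bp, against 2222 bp in the flanks and 1878 bp in the whole list, and 17 of the 45 (37.8%) spanned at least 4 kb, against 17.6% in the flanks and 17.2% of the whole list. HOXC had a median of 5288 bp and HOXA one of 4271 bp, with HOXD at 3011 bp and HOXB at 2135 bp. The widest lay in HOXC, from 54387285 to 54396592 (9308 bp, score 319), and 0.469% of the list were at least that wide. HOXC also held regions of 7777 bp and 7693 bp. The H3K4me3 region with the highest score in HOXA, 450, spanned 3799 bp near the low-coordinate end, from 4.36 kb to 8.16 kb, and that of HOXC, 398, spanned 7693 bp from 79.5 kb to 87.2 kb. In HOXA the widest was 6591 bp, from 27219056 to 27225646, one of 6 HOXA regions over 4 kb. The enrichment over control differed less, and the median fold was 8.30 in the HOX windows, 9.02 in the flanks and 7.09 in the whole list.

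**Figure D2:**
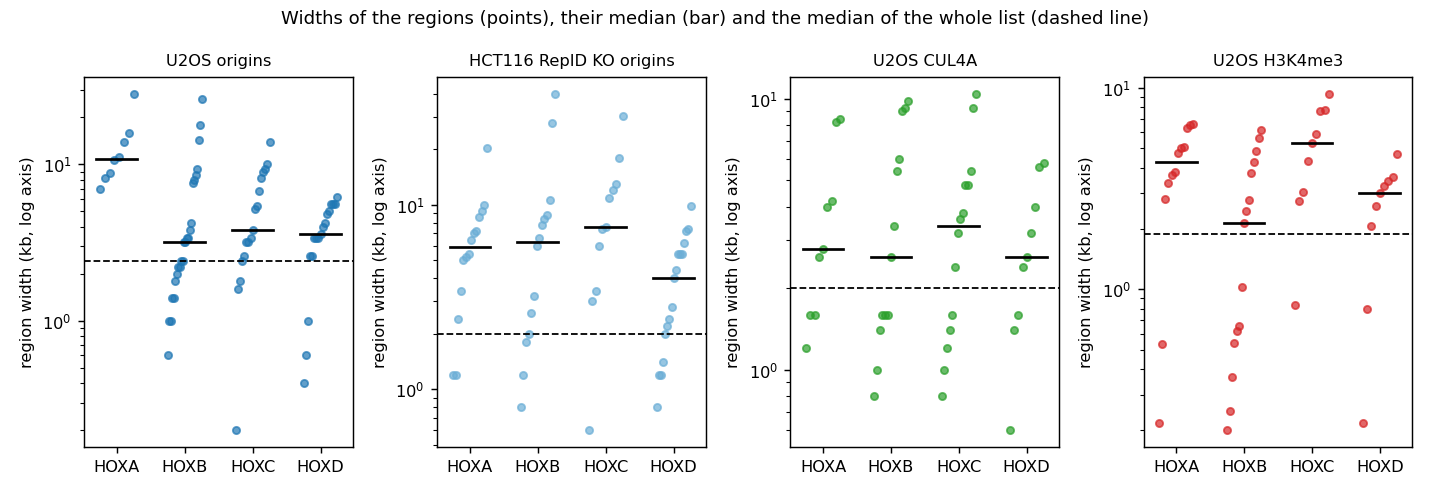
Width of every U2OS origin, HCT116 RepID KO origin, CUL4A region and H3K4me3 region in the HOX windows, in kb on a log axis, by cluster. Bars mark the cluster medians and dashed lines the median of the whole list; the 8 U2OS origins of HOXA, 7.0 kb to 28.2 kb wide, all lie above the line at 2.4 kb.

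Along the windows H3K4me3 was uneven. The low-coordinate side of HOXD, where the RefSeq order begins with HOXD13, was covered to 34.0% and the other side to 8.45%, and a stretch of 44.4 kb from 57.2 kb to 101.6 kb held none. In HOXB, whose order begins with HOXB1, the low-coordinate side had 26.0% and the other side 8.08%, with an empty stretch of 48.3 kb from 156.2 kb to 204.5 kb. HOXA had more on its high-coordinate side, towards HOXA13, with 49.8% against 31.3%. HOXC had 44.7% and 33.4%, and its empty stretch of 29.6 kb began at 87.2 kb. Members were not placed in hg19, so which of them lie on a side or in an empty stretch was not examined. The values are not read as a change along the gene order.

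Origins of both lines were dense in the HOX windows, in a different way in each cluster. This density was less rare than that of H3K4me3. Of tiles as long as HOXA, HOXB, HOXC and HOXD, 0.316%, 2.15%, 1.24% and 3.97% were covered at least as much by U2OS origins. For HCT116 RepID KO origins the shares were 1.40%, 2.57%, 0.324% and 3.41%. In U2OS, HOXA was covered to 86.5% by 8 origins, which left no stretch over 4.2 kb free. Its flanks had 31.5%. The number of origins per 100 kb was alike, 6.67 in the window and 6.85 in the flanks, and the regions were wider. With regions set to 1 kb at their centres, the window minus the flanks gave −0.18 percentage points. The 8 HOXA origins measured 7.0 kb to 28.2 kb, with a median of 10.9 kb, where the flanks of all clusters together had 3.0 kb. The widest, from 60.0 kb to 88.2 kb, had a score of 1726 that 0.273% of the list reached. SICER joins enriched windows up to 600 bp apart, so a wide region can hold several initiation sites, which the list does not resolve.

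In HOXD the number of origins differed as well. U2OS origins covered 56.0% of the window and 8.11% of its flanks, with 15.5 and 3.55 origins per 100 kb. Origins of HCT116 RepID KO cells covered 57.5% and 1.62%, with 15.5 and 1 per 100 kb. The 17 HOXD origins of each line were narrower than those of HOXA, with medians of 3.6 kb in U2OS and 4.0 kb in HCT116 RepID KO cells. HOXC was covered to 71.3% in U2OS (flanks 39.3%) and to 85.3% in HCT116 RepID KO cells (flanks 23.9%). HOXB was covered to 61.0% (flanks 42.8%) and 59.0% (flanks 28.6%), the smallest differences from the flanks for both lists. For HCT116 RepID KO origins in HOXB the difference became −0.75 percentage points with 1 kb around each centre.

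The widest HOXC origins lay at different places in the 2 lists. In HOXC the widest U2OS origin measured 14.0 kb, from 90.2 kb to 104.2 kb (score 531), and the highest-scoring one ran from 16.4 kb to 24.6 kb (score 578). HCT116 RepID KO cells had a single HOXC origin of 30.4 kb, from 45.6 kb to 76.0 kb, with the highest score of the cluster in that list, 4552. In HOXD, U2OS had its widest and highest-scoring origin from 34.6 kb to 40.8 kb (score 265), and HCT116 RepID KO cells had an origin with exactly these ends (score 837). The highest HOXD score of HCT116 RepID KO cells, 1743, belonged to an origin that reached into the window from its low-coordinate side. In HOXA, HCT116 RepID KO cells had a 20.2 kb origin from 51.8 kb to 72.0 kb (score 3434) that overlapped the 28.2 kb one of U2OS. Scores are not comparable between lists.

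**Figure D3:**
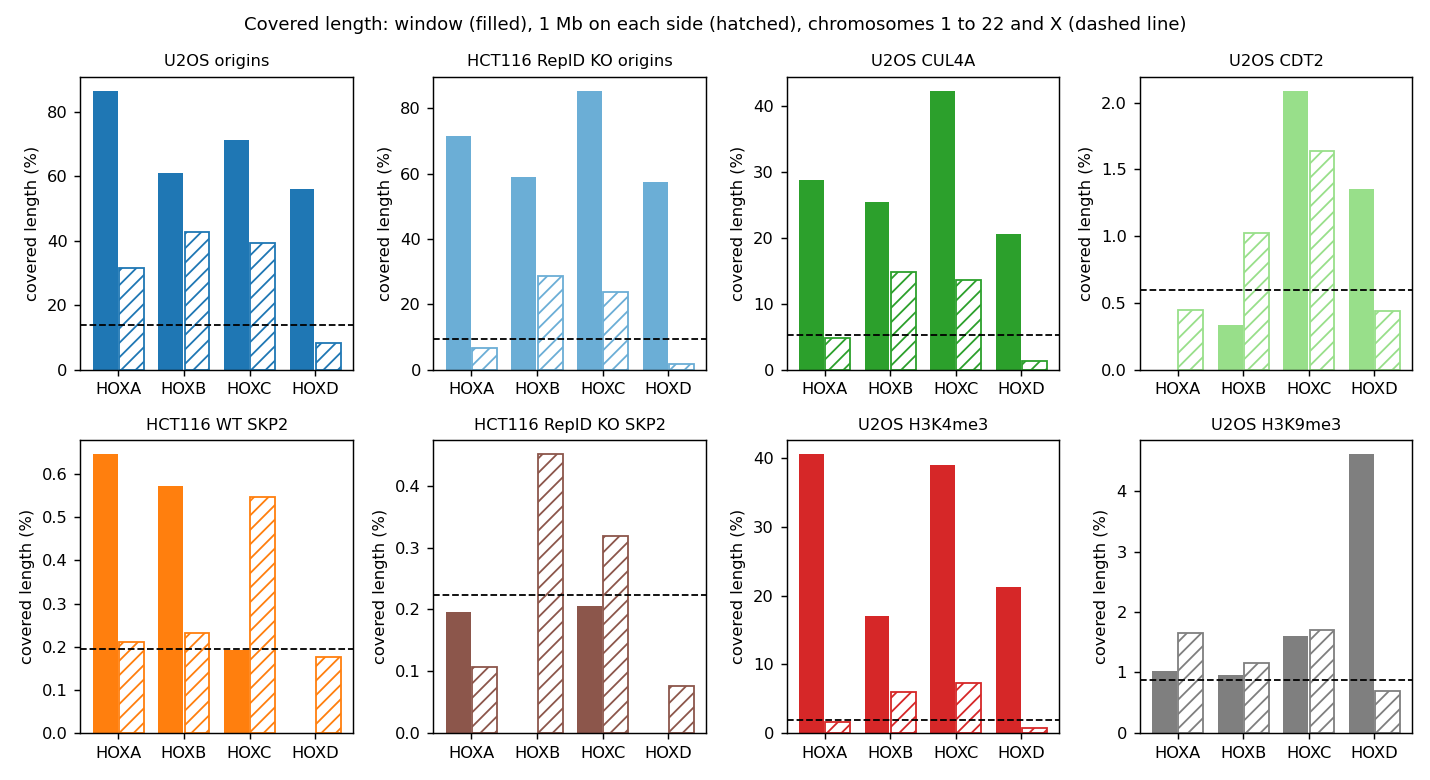
Percent of length covered by each of the 8 lists in each HOX window (filled bars), in the 1 Mb on each side (hatched bars) and in chromosomes 1 to 22 and X (dashed line); the vertical scale differs by panel. Filled bars exceed hatched bars in all 4 clusters for both origin lists, CUL4A and H3K4me3, and for H3K9me3 in HOXD alone, at 4.61% against 0.70%.

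HOXB differed between its low- and high-coordinate sides. Its window is the longest, 210 kb for 10 members, where HOXA has 120 kb for 10. How the members are spread over the 2 sides was not examined, so the values describe the window and not its genes. The low-coordinate 105 kb were covered to 83.2% by U2OS origins, 86.3% by HCT116 RepID KO origins and 41.5% by CUL4A. The remaining 105 kb had 38.9%, 31.6% and 9.33%. HCT116 RepID KO cells had their widest HOX origin in the dense part, a region of 39.8 kb from 53.2 kb to 93.0 kb with a score of 8969, which 0.567% of that list reached. U2OS had a 26.2 kb origin from 26.8 kb to 53.0 kb there, with a score of 1517. In the sparse part CUL4A was absent over 69.0 kb, from 119.8 kb to 188.8 kb.

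**Figure D4:**
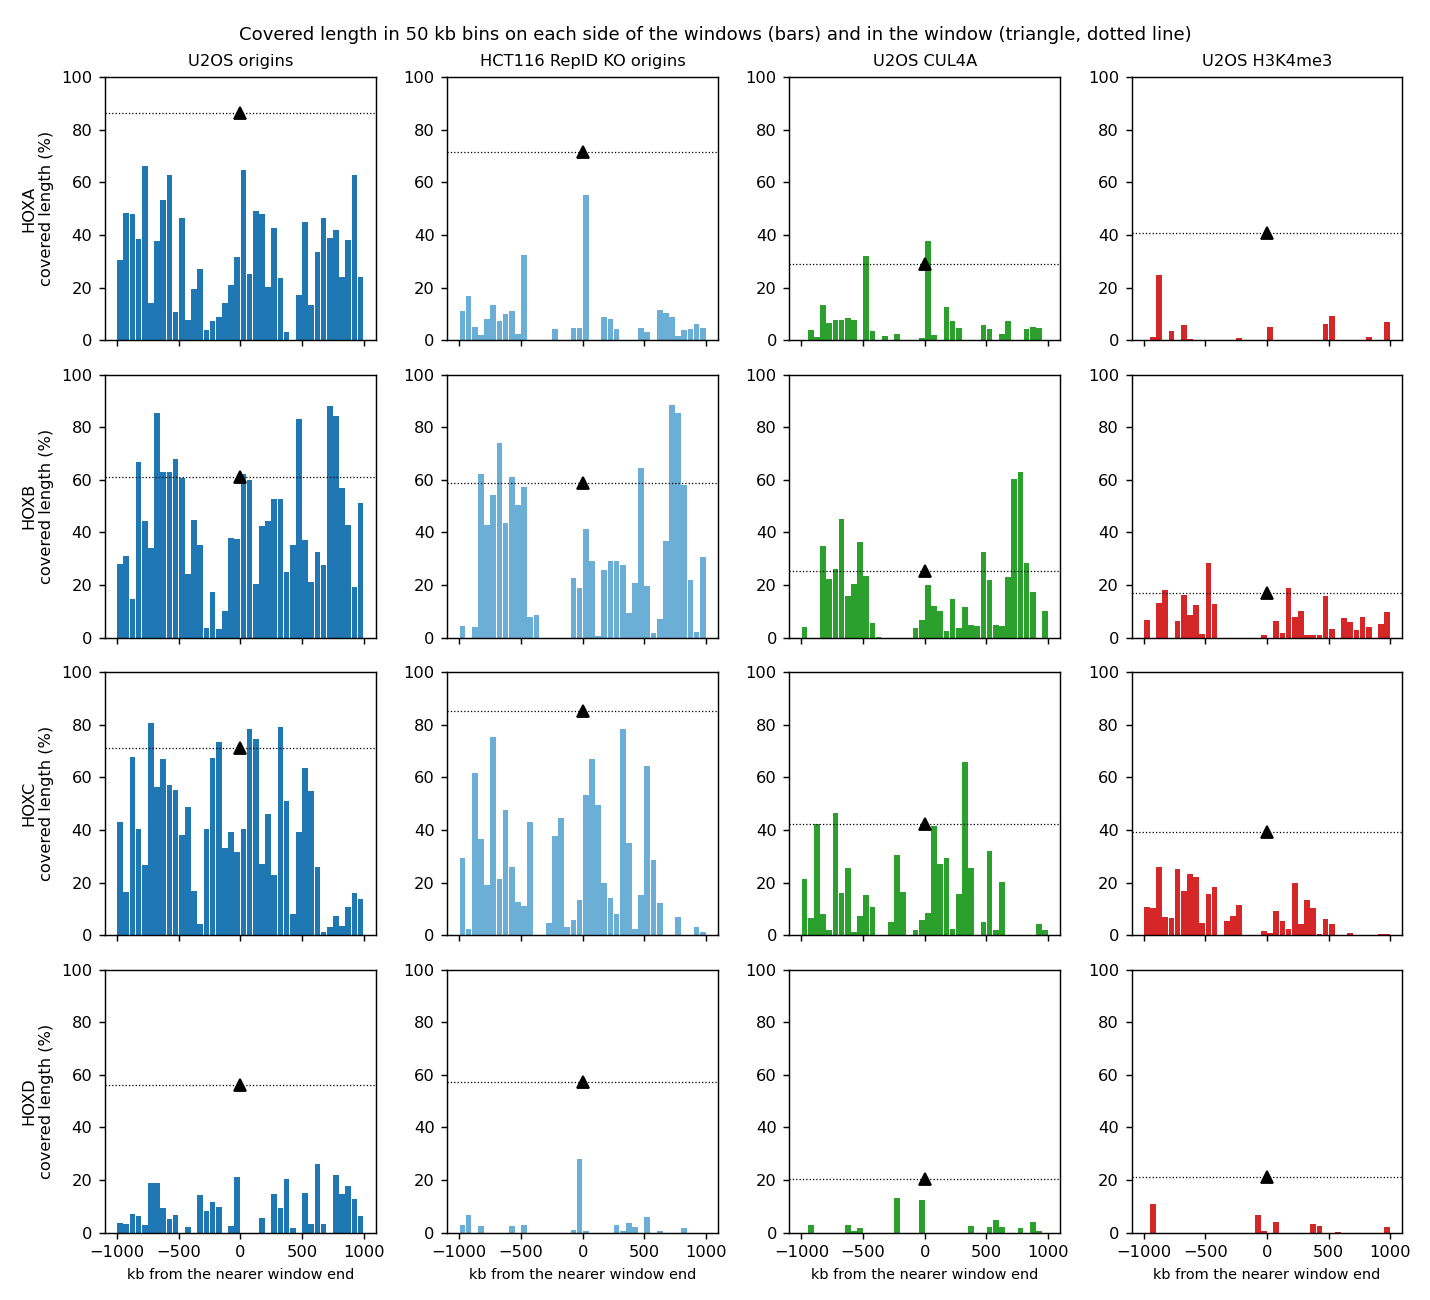
Percent of length covered in bins of 50 kb over 1 Mb on each side of the 4 HOX windows, for U2OS origins, HCT116 RepID KO origins, CUL4A and H3K4me3; the triangle and dotted line give the window. Around HOXD 0 of 40 bins reach the window in any of the 4 lists, whereas around HOXB 9, 6, 8 and 3 bins do. The bins are shorter than the windows, so these numbers do not rank the clusters.

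The bins of 50 kb beside the windows showed how far each cluster stood out from its own flanks. The windows are 110 kb to 210 kb long, so the numbers of bins do not rank the clusters. Of tiles as long as HOXD, 3.97% were covered at least as much by U2OS origins and 7.62% by CUL4A. For HOXB these shares were smaller, 2.15% and 5.10%. For H3K4me3 the smaller share was that of HOXD, 0.399% against 0.464%. For HOXD, none of 40 bins was covered as much as the window by U2OS origins, HCT116 RepID KO origins, CUL4A, H3K4me3 or H3K9me3. The highest HOXD bins reached 26.0% for U2OS origins and 28.0% for HCT116 RepID KO origins. For HOXA, 0 bins reached the window for either origin list or H3K4me3, and 2 did for CUL4A. The higher of these, at 37.6%, adjoined the high-coordinate end, where HCT116 RepID KO origins also had their highest HOXA bin, at 55.2%. For HOXB, 9 bins reached the window for U2OS origins, 6 for HCT116 RepID KO origins, 8 for CUL4A and 3 for H3K4me3. For HOXC the numbers were 5, 0, 3 and 0.

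The origins of U2OS and of HCT116 RepID KO cells lay largely at the same places in the HOX windows. Of the 66 U2OS origins, 60 met one of HCT116 RepID KO cells (90.9%, Wilson 95% interval 81.5 to 95.8%), against 43.8% in the flanks (39.9 to 47.7%) and 42.3% in the whole list. In the other direction 52 of 56 did (92.9%, 83.0 to 97.2%), against 80.5% in the flanks and 59.7% in the whole list. Regions that cover more of a window meet more easily, and the length they share rises with coverage too. U2OS and HCT116 RepID KO origins covered 67.7% and 67.0% of the windows, and 30.4% and 15.2% of the flanks. The part of coverage in the overlaps was not tested. Both lists had 315.6 kb in common, 71.9% of the length that either covered, against 34.7% in the flanks. By cluster this share was 74.8% in HOXA, 73.3% in HOXB, 70.9% in HOXC and 66.4% in HOXD, where the flanks had 13.3%, 46.3%, 43.9% and 7.87%. The intervals cover counting error only and treat neighbouring regions as independent, which they are not.

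The 6 U2OS origins that met no HCT116 RepID KO origin all lay in HOXB, and 5 of them were in its sparse part, between 133.8 kb and 185.8 kb. They were 1400 bp to 2400 bp wide and scored 52 to 81, below the list's median of 93. Each window had 1 HCT116 RepID KO origin that met none of U2OS. That of HOXA was 7200 bp wide and reached past the window's high-coordinate end, and the others were 1200 bp in HOXB, 3000 bp in HOXC and 2400 bp in HOXD.

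H3K4me3 and origins overlapped more often in the HOX windows than in the whole list, and the excess over the flanks was smaller. Of the 45 H3K4me3 regions, 41 met a U2OS origin (91.1%, 79.3 to 96.5%), against 80.8% in the flanks (73.0 to 86.7%) and 59.6% in the whole list. All 12 of HOXA and all 9 of HOXC did. The exceptions were 2 in HOXB, at 148.6 kb and 156.0 kb, and 2 in HOXD, at 43.4 kb and 48.7 kb, and their scores of 38 to 47 lay below the list's median of 122. CUL4A was found with an origin at 26 of the 45 H3K4me3 regions, and 15 had an origin without CUL4A. The remaining 4 had neither, and 0 had CUL4A without an origin. Conversely, 37 of 66 U2OS origins met H3K4me3 (56.1%, 44.1 to 67.4%), against 16.4% in the flanks and 11.8% in the whole list. By length, 85.7% of H3K4me3 in the windows lay inside U2OS origins, against 72.9% in the flanks, and in HOXD the values were 69.3% and 15.8%. U2OS origins covered 67.7% of the windows and 30.4% of the flanks, and in HOXD 56.0% and 8.11%. H3K4me3 therefore meets them more easily in the windows, and the part of this in the overlaps was not tested.

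CUL4A in the HOX windows met H3K4me3 more often than CUL4A in the flanks did. Of its 45 regions, 27 met H3K4me3 (60.0%, 45.5 to 73.0%), against 26.7% in the flanks (21.4 to 32.8%) and 16.2% in the whole list. In the other direction, 26 of 45 H3K4me3 regions met CUL4A (57.8%, 43.3 to 71.0%), against 47.2% in the flanks, whose interval of 38.7 to 55.9% overlaps it, and 36.6% in the whole list. CUL4A regions met a U2OS origin in 41 of 45 cases (91.1%, 79.3 to 96.5%), close to the 87.5% of the flanks, with 69.3% in the whole list. Of the U2OS origins, 35 of 66 met CUL4A (53.0%, 41.2 to 64.6%), against 31.2% in the flanks and 29.9% in the whole list. CUL4A covered 28.8% of the windows and 8.65% of the flanks, and the median U2OS origin was 3800 bp and 3000 bp wide. Both make a meeting easier in the windows, and their part was not tested.

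The CUL4A level differed between the clusters. HOXC was covered to 42.3% by 14 regions, HOXA to 28.8% by 9, HOXB to 25.4% by 13 and HOXD to 20.5% by 9. The flanks had 13.6%, 4.87%, 14.9% and 1.28%. Of tiles of the same lengths, 1.56%, 4.32%, 5.10% and 7.62% were covered at least as much by CUL4A. The widest CUL4A region lay in HOXC from 45.8 kb to 56.2 kb (10400 bp, score 217) and met the H3K4me3 region of 7777 bp. The highest score of the windows, 345, was that of a HOXB region of 9200 bp from 35.6 kb to 44.8 kb, and 5.75% of the list scored as much. In HOXC the highest was 254, from 59.0 kb to 68.2 kb, in HOXA it was 308, from 59.8 kb to 68.2 kb, and in HOXD it was 190, from 18.8 kb to 21.4 kb. Each of these highest-scoring regions met H3K4me3, H3K9me3 and a U2OS origin.

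**Figure D5:**
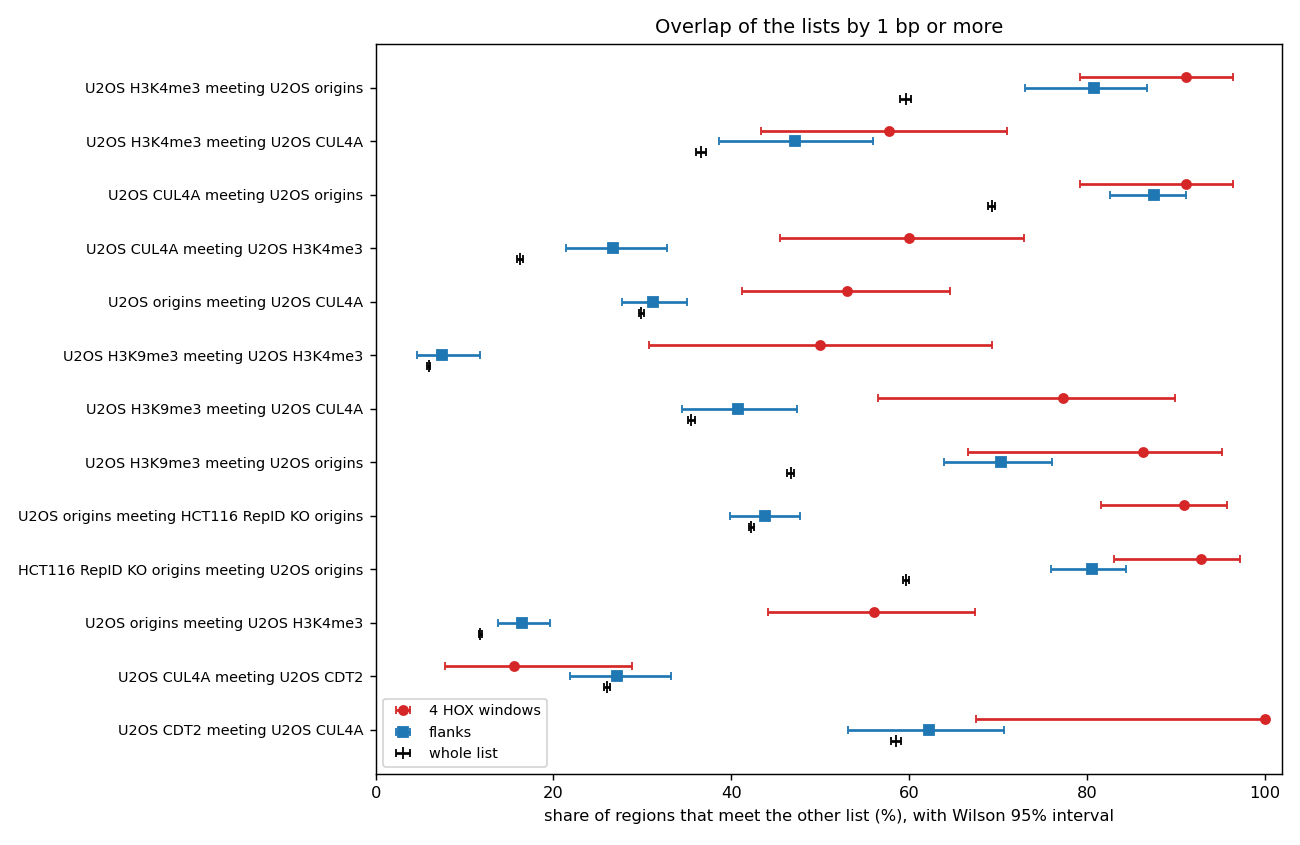
Share of regions of a list that meet another list by at least 1 bp, in the HOX windows (circles), in the 1 Mb on each side (squares) and in the whole list (ticks), with Wilson 95% intervals on the horizontal axis in percent. The widest gaps between circle and square are those of H3K9me3 meeting H3K4me3, 50% against 7.41%, and of U2OS origins meeting HCT116 RepID KO origins, 90.9% against 43.8%.

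H3K9me3 was sparse in the HOX windows, with 22 regions that covered 1.83%, against 1.30% in the flanks and 0.88% of chromosomes 1 to 22 and X. HOXD held 4.61%, against 0.70% in its flanks, and 0.587% of tiles of its length were covered as much. HOXA had 1.03% (flanks 1.65%), HOXB 0.96% (1.16%) and HOXC 1.61% (1.70%). These small deficits turned when only regions with a −log10 q of at least 2 were kept, where the windows lay 0.071, 0.15 and 0.38 percentage points above their flanks. The regions were short and weak, much like those of the whole list. Their median width was 285 bp and their median fold 4.02 over control, against 321 bp and 4.03 in the whole list.

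These few H3K9me3 regions met H3K4me3 more often than those of the flanks or of the whole list. Of the 22, 11 met H3K4me3 (50%, 30.7 to 69.3%), against 7.41% in the flanks (4.61 to 11.7%) and 5.96% in the whole list. All 3 of HOXA did, with 5 of 8 in HOXB and 3 of 7 in HOXD, and 0 of 4 did in HOXC. Of the 45 H3K4me3 regions, 11 met H3K9me3, and 10 of these also met both an origin and CUL4A. The H3K9me3 regions met CUL4A in 17 of 22 cases (77.3%, 56.6 to 89.9%), against 40.7% in the flanks and 35.5% in the whole list. They met a U2OS origin in 19 of 22 cases (86.4%, 66.7 to 95.3%), against 70.4% in the flanks (64.0 to 76.1%) and 46.7% in the whole list. H3K4me3 covered 27.6% of the windows and 3.88% of the flanks, so a region of H3K9me3, CUL4A or an origin placed anywhere meets it more easily in the windows. The same holds for meeting CUL4A, which covered 28.8% and 8.65%, and U2OS origins, which covered 67.7% and 30.4%. The part of coverage in these overlaps was not tested.

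One HOXD site stood out among the H3K9me3 regions. It ran from 176969463 to 176971247 (1785 bp), with a score of 157, a fold of 6.23 over control and a −log10 q of 15.7, and 0.894% of the list scored as much. It lay inside an H3K4me3 region from 176968160 to 176971419, the highest-scoring one of HOXD with a score of 363 and a fold of 10.2. The same site held the highest-scoring CUL4A region of HOXD, 2 of the 3 CDT2 peaks of HOXD, and origins of U2OS and of HCT116 RepID KO cells. No other H3K9me3 region of the windows scored above 57.

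CDT2 had 8 peaks over the 560 kb of the HOX windows. Its density of 1.43 peaks per 100 kb was close to the 1.425 of the flanks, and it covered 0.84% against 0.89% in the flanks, a difference whose sign changed with the settings, and 0.60% of chromosomes 1 to 22 and X. HOXC held 4 peaks, HOXD 3, HOXB 1 and HOXA 0, while the flanks held 51, 16, 34 and 13. All 8 met CUL4A (100%, 67.6 to 100%), against 62.3% in the flanks (53.1 to 70.6%) and 58.6% in the whole list. CUL4A covered 28.8% of the windows and 8.65% of the flanks, so a peak placed anywhere meets it more easily in the windows. The part of this in the overlap was not tested. In the other direction 7 of 45 CUL4A regions met CDT2 (15.6%, 7.75 to 28.8%), against 27.2% in the flanks (21.8 to 33.2%) and 26% in the whole list. The HOXC peaks lay at 21.9 kb, 30.6 kb, 51.0 kb and 67.3 kb, with scores of 39.3, 29.5, 33.5 and 26.5, where the median of the list was 27.2. The HOXD peaks lay at 19.8 kb, 20.9 kb and 34.5 kb, with scores of 20.9, 26.3 and 24.4.

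SKP2 peaks in the HOX windows were too few for a comparison of genotypes. HCT116 WT cells had 4, in HOXA, HOXB, HOXB and HOXC, and HCT116 RepID KO cells had 2, in HOXA and HOXC. The flanks held 49 and 45. None of the 4 WT peaks met a RepID KO peak, which allows a share of up to 49.0% (Wilson 95% interval), while in the flanks 4 of 49 did (8.16%) and in the whole WT list 14%. In HOXA the WT peak began at 32.4 kb with a score of 204, near the lowest of its list (99.8% scored as much), and the RepID KO peak began at 7.68 kb with a score of 340. In HOXC the WT peak began at 82.2 kb with a score of 394 and the RepID KO peak at 31.8 kb with a score of 445. The median scores of the whole lists were 381 and 359. All 4 WT peaks and both RepID KO peaks met an origin of HCT116 RepID KO cells, which covered 67.0% of the windows. The share was 55.1% of WT and 57.8% of RepID KO peaks in the flanks, and 49.3% and 45.7% in the whole lists. A U2OS H3K4me3 region was met by 3 of the 4 WT peaks, the exception being that of HOXA, and by both RepID KO peaks. The shares were 10.2% and 8.89% in the flanks, and 9.05% and 6.66% in the whole lists. H3K4me3 covered more of the windows than of the flanks, and with so few peaks nothing was read from these counts.

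Both WT SKP2 peaks of HOXB fell at the H3K4me3 regions with the 2 highest scores of that cluster. The peak from 46643375 to 46644068 (score 408) lay at the end of the H3K4me3 region from 46639190 to 46644029, which had the highest H3K4me3 score of the windows, 627, with a fold of 13.2. The highest-scoring CUL4A region of HOXB and an H3K9me3 region of 297 bp were there too. The peak from 46704209 to 46704714 (score 373) lay inside the only CDT2 peak of HOXB, from 46704149 to 46704843 (score 30.4). That site fell in an H3K4me3 region from 46699254 to 46705451, with a score of 481 and the highest fold of the windows, 15.1, and in a CUL4A region of 9800 bp, the widest of HOXB. Origins of both lines covered it. Both SKP2 sites of HOXB had bases under 6 lists, the most found in the windows, and so did the HOXD site of H3K9me3 above and a HOXD site from 176984698 to 176985076 with the third CDT2 peak of that cluster. SKP2 and CDT2 were mapped in different cell lines, so the coincidence is one of positions.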

How the data were processed

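Replication origins and ChIP-Seq enrichment were read from 8 lists of regions, 1 sample each, among the 11 samples. The authors called the regions, with MACS and SICER on hg19 per the submitters' processing notes, and no reads were used here. The deposited origin and CUL4A lists lie on the 200 bp grid of SICER (stated gap 600 bp, false discovery rate 0.01 for origins and 1e-05 for CUL4A), so close regions were joined and single sites inside a wide region are not resolved. Every deposited list carries a score of the authors, which was used only within its list. The deposited histone lists, for which the methods name SICER, have the form of MACS2 broad peaks, with the authors' fold enrichment over control as a ratio and significance as −log10 p and −log10 q. Further columns of the SKP2 lists have no stated meaning and were not used. The lists state no read counts or library totals, so the depth is unknown.

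Covered length was summed in each HOX window, in 1 Mb on each side and over chromosomes 1 to 22 and X, whose lengths were taken as the last end in any list. Regions met when they shared at least 1 bp, and shares were given Wilson 95% intervals, which cover counting error only. As conditions have 1 sample, everything is a description and no test was made. Groups were taken from the labels, and regions are not replicates. The lists of regions, members and windows were chosen with earlier results of these data known. The members named are the 38 HOX genes, by cluster and in order. The regions singled out are mainly those with the highest score or the largest width in a cluster and list. All CDT2 and SKP2 peaks were added after their values were seen. Outside that rule, the text also names a further wide H3K4me3 region of HOXC and H3K4me3 regions without an origin. It names origins that met none of the other line, empty stretches and the sites under the most lists as well. Start sites of genes in hg19 were not used here, so a planned count of start sites with a region, and counts for cofactor, ParaHox, non-coding and flanking genes, were not made. Overlap and coverage were tested on simulated lists, where 0 of 24200 answers differed from a count base by base. Alternatives were the upper 50% of scores, a −log10 q of at least 2, 1 kb around each centre, windows widened by 20 kb, other flanks and other overlap rules. Python 3.11.15, NumPy 2.4.6, SciPy 1.17.1 and matplotlib 3.10.9 were used.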

Additional observations from a re-analysis of the deposited data

How the results depend on the processing

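Over the 4 HOX windows together, both origin lists, CUL4A and H3K4me3 stayed above their flanks in every alternative, by differing amounts. With 1 kb around each centre, the covered percent was 11.3 for U2OS origins, 9.16 for HCT116 RepID KO origins, 7.68 for CUL4A, 8.04 for H3K4me3 and 3.93 for H3K9me3, and the first 4 exceeded their flanks by 3.75, 5.01, 4.79 and 6.49 percentage points. With the upper 50% of scores, the covered percent was 63.5 for U2OS origins, 24.8 for CUL4A, 24.0 for H3K4me3 and 0.83 for H3K9me3. Windows widened by 20 kb were covered to 61.2% by U2OS origins, 59.6% by HCT116 RepID KO origins and 21.6% by H3K4me3, which is 31.2, 45.0 and 17.7 points above the flanks.

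For CDT2 the pooled difference turned from −0.051 to 0.030 points with the upper 50% of scores, 0.0093 with 1 kb around each centre, 0.037 with flanks of 500 kb and 0.044 with the right flank only. When at least 50% of a region had to be covered, 36.4% of U2OS origins met CUL4A, 33.3% met H3K4me3 and 0% of CUL4A regions met CDT2. CDT2 peaks are too narrow to cover that much of a CUL4A region, and the cause was not tested otherwise.

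Within single clusters the difference from the flanks changed sign for lists with few or narrow regions. With 1 kb around each centre it was −0.18 points for U2OS origins in HOXA, −0.75 for HCT116 RepID KO origins in HOXB, 0.23 for RepID KO SKP2 in HOXC, and 1.39 and 0.18 for H3K9me3 in HOXB and HOXC. With the upper 50% of scores it was −0.094 for CDT2 in HOXD, −0.073 for WT SKP2 and −0.059 for RepID KO SKP2 in HOXA, and 0.020 for RepID KO SKP2 in HOXC. It was −0.10 for CDT2 in HOXC with widened windows, 0.041 for RepID KO SKP2 in HOXC with the right flank only, and 0.29 for H3K9me3 in HOXC with the left flank only. With a −log10 q of at least 2 it was 0.071, 0.15 and 0.38 for H3K9me3 in HOXA, HOXB and HOXC. The count of HOX start sites with a region was not run. No paired analysis was possible because each condition is 1 sample.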
